A study of Arabidopsis thaliana with 34 samples.

Results

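IBM1 (AT3G07610) and RPP7 (AT1G58602) are Arabidopsis genes known for heterochromatin inside an intron, and they were chosen here for that by name, as 2 of the 27444 protein-coding genes of the nuclear genome. The peaks described are all those of 18 ChIP-seq peak lists that touch either gene or the 2 kb on each side of it, in TAIR10 coordinates. There were 6 such peaks at IBM1, in 6 of the 18 lists, and 97 at RPP7, in 18 of 18 lists. The lists come from a study of how linker histone H1 relates to the binding of the RNA-directed DNA methylation (RdDM) machinery.

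All plants were Col-0, and each list came from 1 library of chromatin from pooled seedlings of 10 to 12 days, 2 libraries per combination of antibody and genotype. NRPE1, the largest subunit of RNA polymerase V, was precipitated with a native antibody from the h1 mutant, from ZF108DMS3 plants and from WT. SUVH1, a protein that binds methylated DNA, was precipitated through a FLAG tag on a SUVH1 transgene in the h1 background, with no other genotype. H3K9me2 was profiled in the h1 mutant and in WT. H1 was profiled in the nrpe1 mutant, in ZF108DMS3 plants and in WT. The h1 mutant carried T-DNA insertions in both main H1 genes (h1.1-1 and h1.2-1), and the nrpe1 mutant carried the nrpe1-11 allele. ZF108DMS3 plants were wild type plants with a transgene that fuses DMS3, a component of the complex that brings Pol V to chromatin, to the zinc finger ZF108, which binds many sites across the genome. The NRPE1 and H1 libraries of ZF108DMS3 came from the same chromatin. The study calls the NRPE1 libraries of WT and h1, and the H1 libraries of WT and nrpe1, biological replicates. The labels do not say whether libraries of one group came from separate cultures, so the p-values measure only the spread between these libraries.

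Most heterochromatin in plants lies in transposons and repeats and carries DNA methylation and H3K9me2, which reinforce each other. A few genes hold such chromatin inside an intron and still need to be transcribed through it, which depends on factors such as EDM2 and IBM2. IBM1 is a JmjC histone demethylase that removes H3K9 methylation from active genes, and its full-length transcript has to run through a methylated intron. RPP7 is an NLR immune receptor against downy mildew, with a Copia-type retrotransposon in its first intron that can end transcription early.

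Each list gives, for every peak, its start, end and summit, its fold enrichment over local background and the −log10 of its p and q values. It gives no reads, so sequencing depth is unknown and a region with no peak is only a region where none was called. The measure compared here is the percent of bases of an exon, intron, flank or window that lie under peaks. Differences are in percentage points, and groups of 2 were compared by a two-sided exact permutation test, whose smallest possible p is 0.33. No difference below can therefore reach 0.05, and each is set beside the gap between the libraries of a group and beside what other genes did in the same lists. Over the nuclear chromosomes NRPE1 peaks covered 22.7 and 21.2 Mb in h1, 7.20 and 7.53 Mb in ZF108DMS3 and 13.6 and 13.8 Mb in WT. H3K9me2 peaks covered 13.0 and 13.5 Mb in h1 and 13.0 and 15.5 Mb in WT, and the 6 H1 lists covered 14.0 to 15.8 Mb. How far these list-wide differences enter the values at the 2 genes was not tested.

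IBM1 lies on chromosome 3 at chr3:2425884-2433113, plus strand. Its annotated transcript with the longest coding sequence has 17 exons, and its longest intron is intron 8 at chr3:2429653-2431126, 1474 bp. A 16-exon transcript has most of this stretch within an intron of 1974 bp that starts further upstream, at 2429125, and ends earlier, at 2431098. A short transcript of 7 exons ends inside the intron, at 2430203, with its last coding base at 2429358. In the 17-exon transcript 2149 coding bases lie before this intron and 1001 after it. The stretch shared by all NRPE1 peaks in this intron is the site on which the IBM1 results turn, so its 237 bp (chr3:2430337-2430573, plus strand, TAIR10.1 reference genome) are shown with CG dinucleotides in capitals.
IBM1 intron NRPE1 site: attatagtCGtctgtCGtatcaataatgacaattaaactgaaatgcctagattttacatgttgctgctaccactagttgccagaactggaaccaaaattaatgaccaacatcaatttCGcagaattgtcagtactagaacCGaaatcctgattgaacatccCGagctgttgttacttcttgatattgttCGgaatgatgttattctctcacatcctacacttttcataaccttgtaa
This site has 36.3% GC, against 31.8% for the whole intron, and 6 CG dinucleotides. Every 50-base window of the IBM1 gene and its flanks occurs once in the genome, so unique mapping leaves no part of it out of reach.

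NRPE1 occupied a single place at IBM1, the middle of the long intron. In h1 the peak measured 772 bp with 4.91-fold enrichment in replicate 1 and 661 bp with 6.87-fold enrichment in replicate 2. In ZF108DMS3 no peak was called in replicate 1, and in replicate 2 a peak of 237 bp had 2.31-fold enrichment. In WT it measured 822 bp with 4.69-fold and 690 bp with 4.49-fold enrichment. The peak was thus present in both h1 and both WT libraries and weak or missing in ZF108DMS3. In their own lists the h1 peaks exceeded 76.8% and 80.3% of peaks by p, the ZF108DMS3 peak 27.7%, and the WT peaks 85.0% and 71.0%. All 5 summits fell within 115 bp of one another, between 2430474 and 2430589, beyond the end of the short transcript and before the exons that only the longer transcripts carry.

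**Figure D1:**
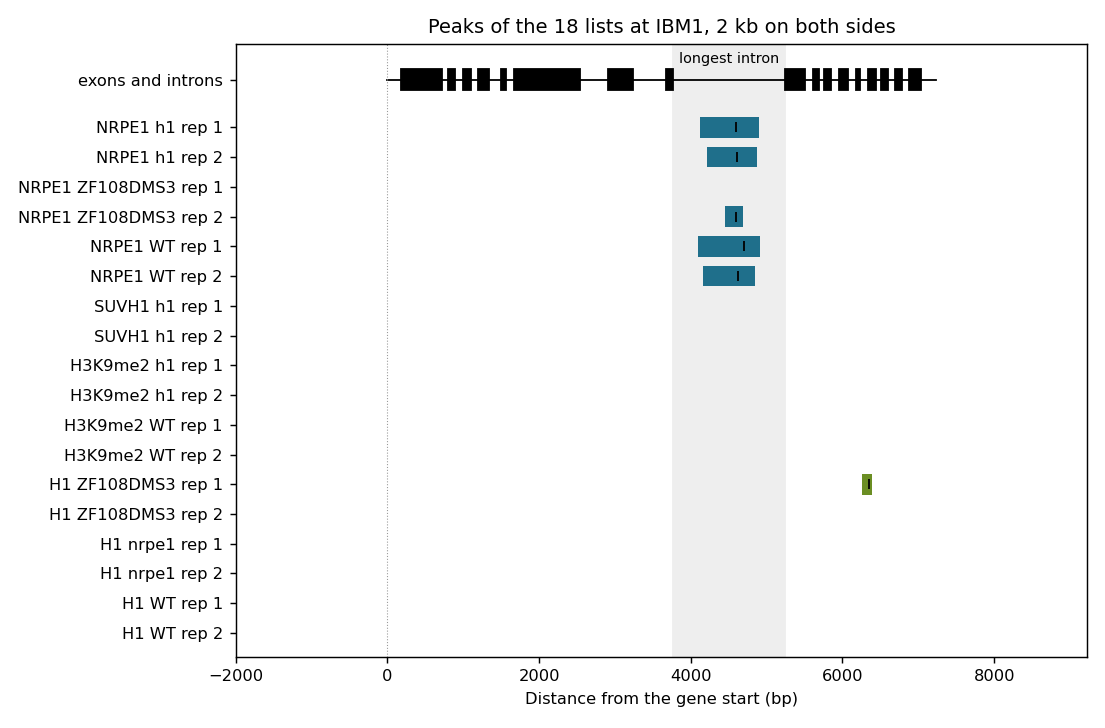
Peaks of the 18 lists along IBM1 by distance in bp from the gene start. The top row gives the exons (black boxes) of the 17-exon transcript, each further row is 1 library, bars are peaks and ticks their summits. The 5 NRPE1 peaks stack in the longest intron (grey), with none in ZF108DMS3 replicate 1, and the remaining peak is an H1 peak of 140 bp in ZF108DMS3 replicate 1.

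As percent of the IBM1 long intron, NRPE1 peaks covered 52.4% and 44.8% in h1 and 55.8% and 46.8% in WT. The ranges overlap, and the difference of −2.68 points was smaller than the gaps within the groups, 7.53 points in h1 and 8.96 in WT (exact permutation p = 0.667). Bases under peaks in both h1 libraries and bases under peaks in both WT libraries had 639 bp in common, 96.7% of the h1 stretch and 92.6% of the WT stretch. In the same comparison, among genes with an NRPE1 peak in the longest intron in any of the 4 libraries, 40.6% were higher in both h1 libraries than in both WT libraries and 9.23% lower in both, and the median difference was 9.24 points. IBM1 was in neither set. Over the IBM1 gene with its flanks, 6.87% and 5.89% were covered in h1 and 7.32% and 6.14% in WT, again with overlap.

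In ZF108DMS3, 0% and 16.1% of the IBM1 long intron lay under NRPE1 peaks, against 55.8% and 46.8% in WT. The groups did not overlap, and the means of 8.04 ± 11.4% in ZF108DMS3 and 51.3 ± 6.33% in WT (SD, n = 2 each) differed by −43.2 points (exact permutation p = 0.33, the smallest possible). The difference was larger than the gap within either group, 16.1 points in ZF108DMS3 and 8.96 in WT. Among genes with an NRPE1 peak in the longest intron in these 4 lists, 30.6% were lower in both ZF108DMS3 libraries and 18.2% higher in both. A difference at least as large in size, in either direction, was common, since 35.0% of those genes had a larger one.

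H3K9me2, the mark that defines this type of chromatin, had no peak at IBM1 in the 2 h1 or the 2 WT lists, neither in the intron nor in the 2 kb flanks. SUVH1 had none in either h1 list. H1 had none in the nrpe1 and WT lists and a single peak, in ZF108DMS3 replicate 1, with 2.01-fold enrichment over 140 bp of exon 14 and intron 13. In these peak lists the IBM1 intron therefore appears as an NRPE1 site and not as an H3K9me2 domain. Whether H3K9me2 lies there below the threshold of the peak caller cannot be seen without reads.

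RPP7 lies on chromosome 1 at chr1:21746354-21766048, plus strand, and its main transcript has 9 exons. Its first coding base is at 21760167, in exon 4, so introns 1 to 3 all precede the coding sequence. They span chr1:21746500-21753883 (7384 bp), chr1:21754089-21758508 (4420 bp) and chr1:21758659-21760158 (1500 bp). Intron 1 contains the pseudogene AT1G58561 (chr1:21748675-21753246), and 2 direct repeats of 98.4% identity over 430 aligned bases bound a stretch of 5196 bp around it (chr1:21748194-21753389). Within the repeats, stretches of 30 and 182 bp in each copy cannot be reached by unique 50-base reads. Of all bases of intron 1, 94.3% can. The pair of stretches below (200 bp each, plus strand, TAIR10.1 reference genome, CG dinucleotides in capitals) are the ends of the pattern at RPP7: the first, chr1:21746154-21746353, just before the gene, holds 5 of the 6 NRPE1 summits at the gene start (that of ZF108DMS3 replicate 1 lies 37 bp into the gene), and the second, chr1:21749245-21749444, inside the retrotransposon, holds H3K9me2 and H1.
RPP7 upstream of the gene start: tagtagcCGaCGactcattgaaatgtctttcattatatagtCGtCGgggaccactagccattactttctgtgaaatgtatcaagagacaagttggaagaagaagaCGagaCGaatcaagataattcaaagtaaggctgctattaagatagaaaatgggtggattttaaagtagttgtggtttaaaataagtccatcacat
RPP7 intron 1, H3K9me2 and H1: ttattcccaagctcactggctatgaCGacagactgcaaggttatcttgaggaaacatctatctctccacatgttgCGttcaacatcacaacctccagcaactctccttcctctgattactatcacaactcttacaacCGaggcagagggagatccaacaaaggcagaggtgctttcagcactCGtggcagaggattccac
The upstream stretch has 36.5% GC and 6 CG dinucleotides, and the intron stretch 48.0% GC and 4.

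**Figure D2:**
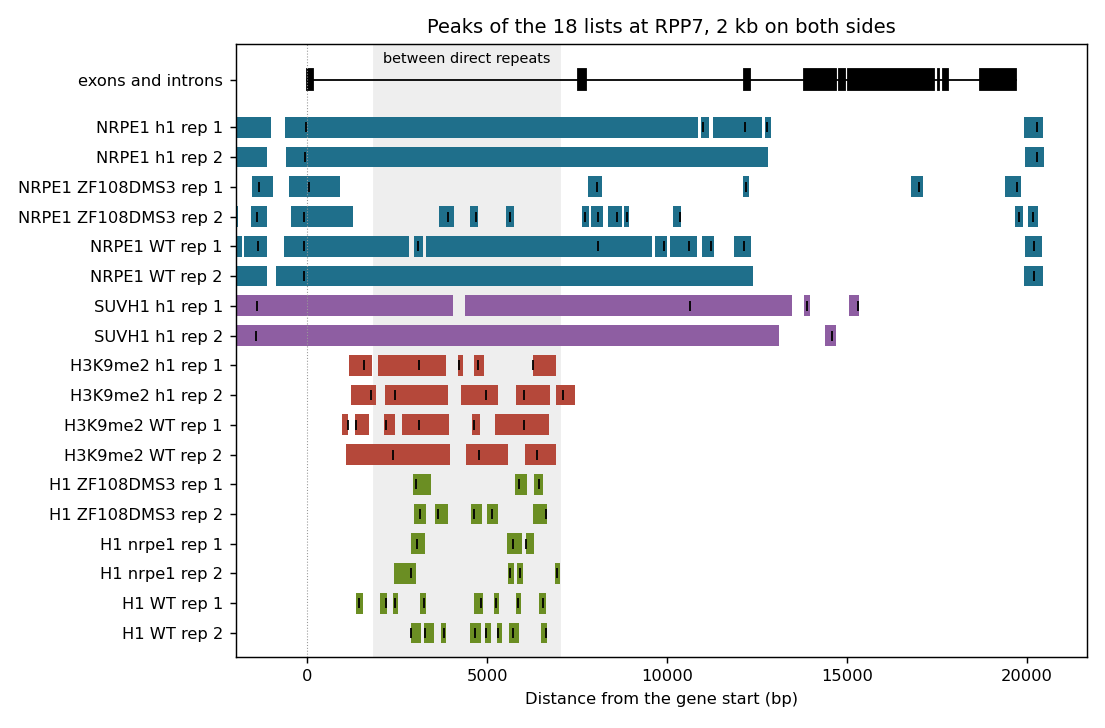
Peaks of the 18 lists along RPP7 by distance in bp from the gene start. The top row gives the 9 exons (black boxes), each further row is 1 library, bars are peaks and ticks their summits. NRPE1 and SUVH1 fill the first 2 introns in h1, as NRPE1 does in WT, while H3K9me2 and H1 peaks stay in intron 1, mostly between the direct repeats (grey).

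NRPE1 covered RPP7 from upstream of the gene to intron 3 as a domain, not as a site. Of the gene with its flanks, 62.5% and 62.5% lay under NRPE1 peaks in h1 and 56.0% and 62.0% in WT. Intron 1 was covered to 100% in both h1 libraries and to 97.4% and 100% in WT. Intron 2 was covered to 96.4% and 100% in h1 and to 80.9% and 100% in WT. Single peaks of 13416 bp in h1 replicate 2 and 13268 bp in WT replicate 2 ran across exons 1 to 3 and the introns between them. Coding exons 4 to 6 had no NRPE1 peak in either h1 or either WT library. Within the domain that runs into intron 1, the peak over the gene start had its summit not in the retrotransposon but near the start itself, 42 and 81 bp before it in h1 (13.0-fold and 23.1-fold) and 92 and 100 bp before it in WT (12.4-fold and 20.3-fold). These peaks exceeded 99.03% to 99.97% of the peaks of their lists by p. A further NRPE1 peak, with its summit just outside the window, more than 2 kb before the gene, reached into the upstream 2 kb in 5 of 6 lists. Its enrichment was 14.1-fold and 17.7-fold in h1, 9.31-fold in ZF108DMS3 replicate 2, and 11.6-fold and 18.4-fold in WT, so in h1 replicate 1 it was above that at the gene start.

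At intron 1, where WT already approached full coverage, h1 minus WT was 1.3 points (exact permutation p = 1), and over the gene with its flanks it was 3.49 points (exact permutation p = 0.33), without overlap but smaller than the 5.96 points by which the WT replicates differed. Among genes with an NRPE1 peak in any of these 4 lists, 34.7% were higher in both h1 libraries over this window and 24.7% lower. The downstream end of the domain differed more. In intron 3, 34.7% and 33.3% of bases lay under NRPE1 peaks in h1, against 2.67% and 6.40% in WT. The groups did not overlap, and the difference of 29.5 points was larger than the gaps of 1.33 points in h1 and 3.73 points in WT (exact permutation p = 0.33, the smallest possible). The last NRPE1 base before the coding sequence lay 593 and 500 bp into intron 3 in h1, and 40 and 96 bp into it in WT. In h1 replicate 1 that base belonged to a separate peak of 176 bp with 1.99-fold enrichment, and the peak before it ended at 21759002. With summits and 150 bp on both sides in place of whole peaks the difference was 10.2 points, all of it from h1 replicate 1. No summit of h1 replicate 2 or of the WT libraries lay in intron 3, so the groups overlapped in that setting. Intron 3 was picked after its values were seen. Of all introns of at least 1000 bp with an NRPE1 peak in any of the 4 libraries, 25.3% were higher in both h1 libraries and 27.1% lower, so such a split is not rare. NRPE1 lists of h1 also covered more of the genome than those of WT, as given above.

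In ZF108DMS3 fewer bases of RPP7 lay under NRPE1 peaks of full width than in WT. Of the gene with its flanks 14.1% and 20.5% lay under NRPE1 peaks in ZF108DMS3, against 56.0% and 62.0% in WT. The means of 17.3 ± 4.54% in ZF108DMS3 and 59.0 ± 4.22% in WT (SD, n = 2 each) differed by −41.7 points, with gaps of 6.42 points in ZF108DMS3 and 5.96 in WT (exact permutation p = 0.33, the smallest possible). Among genes with an NRPE1 peak in any of these lists, 37.3% were lower in both ZF108DMS3 libraries and 29.8% higher in both, and 1.52% had a larger difference in size than RPP7. Intron 1 was covered to 10.4% and 26.7% in ZF108DMS3, and to 97.4% and 100% in WT, a difference of −80.1 points (exact permutation p = 0.33). Intron 2 was covered to 9.52% and 26.5% in ZF108DMS3, and to 80.9% and 100% in WT. The widest NRPE1 peak at RPP7 was 1418 and 1725 bp in ZF108DMS3, against 6303 and 13268 bp in WT. When each peak was reduced to its summit with 150 bp on both sides, ZF108DMS3 minus WT had the opposite sign, 4.39 points for the gene with flanks and 4.36 points for intron 1. NRPE1 peaks were present in ZF108DMS3 around the gene start, where exon 1 was covered to 100% in all 6 NRPE1 lists. The summit there had 9.83-fold and 9.78-fold enrichment in ZF108DMS3.

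Both ZF108DMS3 libraries also had an NRPE1 peak across the end of exon 9, in the region after the coding sequence, covering 30.2% and 2.91% of that exon, where neither WT library had a peak. Replicate 1 alone had a peak in the coding exon 6, of 333 bp with 4.42-fold enrichment. In the 2 kb downstream of RPP7, 25.9% and 25.4% lay under NRPE1 peaks in h1, 7.80% and 24.5% in ZF108DMS3 and 24.4% and 27.1% in WT. Here 26.2% of bases can be reached by unique reads, and the 1476 bp from 21766573 onward cannot. Peaks nevertheless ran into that stretch, to 21766810 and 21766826 in h1, 21766680 in ZF108DMS3 replicate 2, and 21766792 and 21766815 in WT. Both h1 summits, at 21766637 and 21766658, lay inside it. The values therefore include bases that unique reads cannot reach, and how peaks came to cover them was not tested.

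**Figure D3:**
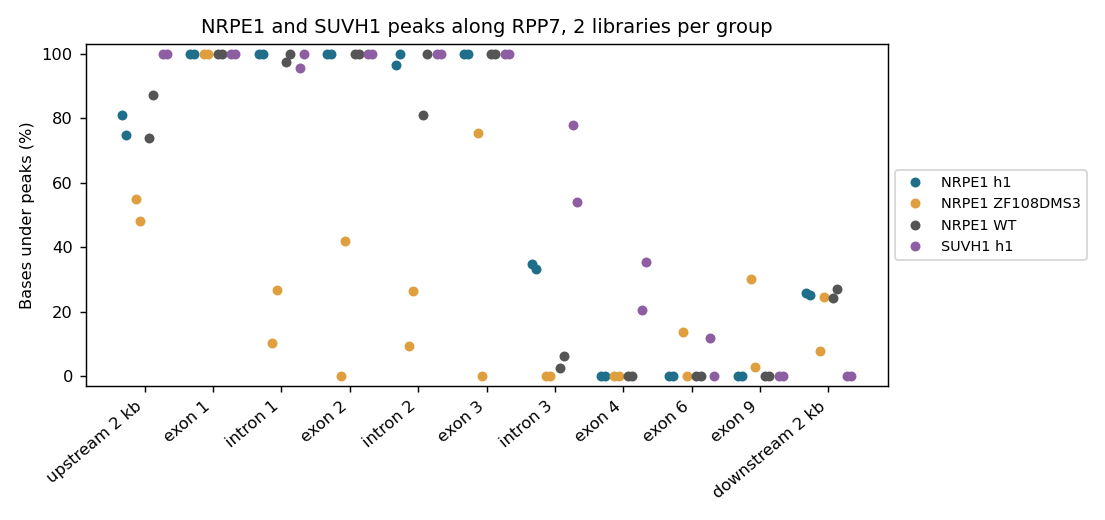
Percent of bases under NRPE1 and SUVH1 peaks in parts of RPP7, 1 point per library. In intron 3 the h1 libraries (34.7% and 33.3%) stand above the WT libraries (2.67% and 6.40%), and in introns 1 and 2 the ZF108DMS3 libraries stand below all others.

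SUVH1 in h1 followed the same outline. It covered 65.8% and 65.1% of RPP7 with its flanks, with peaks of up to 9084 bp in replicate 1 and 15687 bp in replicate 2. Introns 1 and 2 were covered to 95.4% and 100% and to 100% and 100%. Bases under SUVH1 in both libraries made up 14776 bp, and 13731 of them lay under NRPE1 of both h1 libraries, 92.9% of the SUVH1 bases and 94.3% of the NRPE1 bases. SUVH1 went further downstream than NRPE1, covering 77.8% and 53.9% of intron 3. Upstream it covered the whole 2 kb, while none of the downstream 2 kb was covered. Of the coding exon 4 it covered 20.6% and 35.5%, but under peaks that did not overlap between the replicates. These were 21760155-21760343 in replicate 1 (2.13-fold) and 21760738-21761056 in replicate 2 (2.19-fold). There is no SUVH1 list of another genotype here, so no comparison was made.

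H3K9me2 at RPP7 was limited to intron 1, where all 19 of its peaks had their summits. The intron was covered to 48.8% and 67.0% in h1 and to 52.6% and 67.1% in WT. These ranges overlap, and the difference of −1.97 points was smaller than the gaps of 18.3 points in h1 and 14.4 in WT (exact permutation p = 0.667). The sign turned under several alternatives, up to 10.6 points with a −log10 q of at least 3. All 4 lists shared 2505 bp. Enrichment of these peaks was low, from 1.77-fold to 3.74-fold. The weakest, in WT replicate 1, had its summit at 21748540, in the repeat stretch 21748369-21748550 that unique reads cannot reach. How far H3K9me2 coverage depends on such bases was not tested. Coverage was denser between the direct repeats, where it was 56.8% and 75.4% in h1 and 63.9% and 80.4% in WT, than in the rest of the intron, where it was 29.6% and 47.0% in h1 and 25.9% and 35.5% in WT. Both libraries of both genotypes showed this order. Among genes with an H3K9me2 peak in the longest intron, 4.57% were higher in both h1 libraries and 13.3% lower.

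H1 peaks were also found at RPP7 in intron 1 alone, with 30 of 31 summits between the direct repeats. H1 covered 14.0% and 14.3% of intron 1 in nrpe1, 14.7% and 22.8% in ZF108DMS3 and 19.9% and 23.5% in WT. The nrpe1 libraries lay below both WT libraries, with a difference of −7.48 points between the means and gaps of 0.298 points in nrpe1 and 3.62 in WT (exact permutation p = 0.33, the smallest possible). Among genes with an H1 peak in the longest intron in those lists, 7.68% were lower in both nrpe1 libraries and 5.94% higher. A difference of this size was common, since 67.8% of those genes had a larger one in either direction. ZF108DMS3 and WT overlapped, with a difference of −2.93 points (exact permutation p = 0.667) that became 3.74 points with a −log10 q of at least 3. With all peaks kept, 6.77% of genes with an H1 peak in the longest intron were lower in both ZF108DMS3 libraries and 6.98% higher. There were 3 and 4 H1 peaks in nrpe1, 3 and 5 in ZF108DMS3, and 8 and 8 in WT. In WT replicate 1 the summit at 21748547 lay in the repeat stretch 21748369-21748550, which unique reads cannot reach. In nrpe1 replicate 2 the summit at 21753283 lay in the stretch 21753141-21753322, also out of reach. The peak counts, the 30 of 31 summits and the nrpe1 minus WT difference include these peaks. How far the values depend on such bases was not tested. The single peaks were short and weak, and the 2 WT libraries shared 558 of the 2641 bp that either of them covered, 21.1%. Of these shared H1 bases, 77.4% lay under H3K9me2 of both WT libraries, which covered 44.9% of the intron. A share of 92.5% lay under NRPE1 of both WT libraries, which covered 97.4% of the intron, so that overlap says little. The intron stretch printed above contains 47 bp (chr1:21749321-21749367) that lay under H3K9me2 peaks in all 4 lists and under H1 peaks in 5 of 6.

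**Figure D4:**
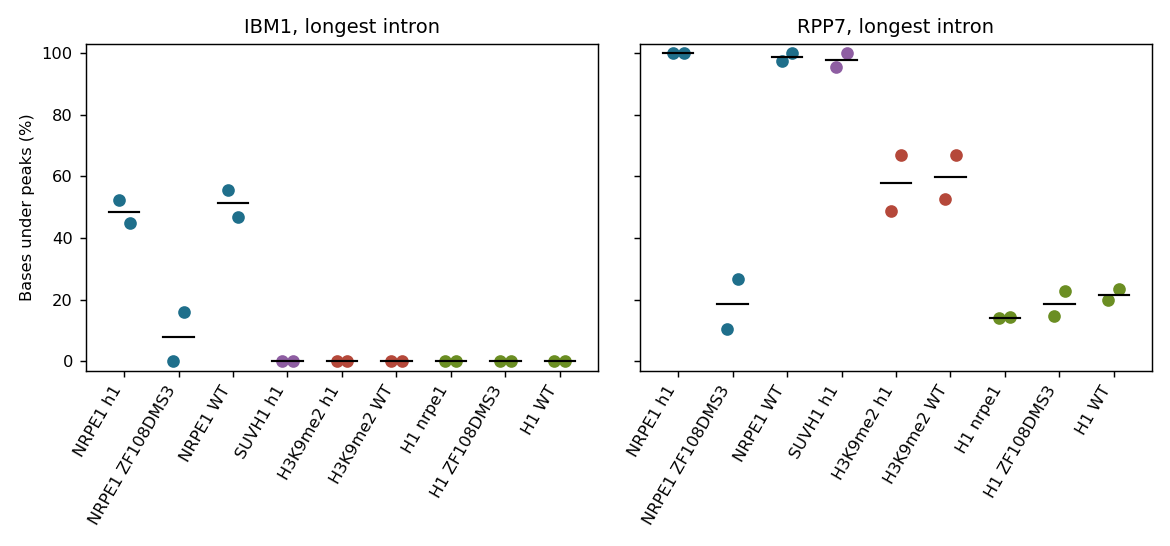
Percent of the longest intron under peaks at IBM1 (left) and RPP7 (right), 1 point per library and the mean of 2 as a line. IBM1 has NRPE1 alone, while RPP7 has all of NRPE1, SUVH1, H3K9me2 and H1.

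To place the 2 introns, the longest intron of every gene was taken where it had at least 1000 bp, which gave 710 genes. An H3K9me2 peak in both WT libraries was found in 33 of these introns, 4.65%, RPP7 among them and IBM1 not. An NRPE1 peak in both libraries was found in 27% of the introns in h1, 20% in ZF108DMS3 and 26.1% in WT. The RPP7 intron was longer than all but 3 of the 710, and had more SUVH1 coverage than any other (mean 97.7%) and more H3K9me2 coverage in WT than all but 11 (mean 59.9%). The IBM1 intron was shorter than 252 of them, and 88 had more NRPE1 coverage than it in WT. H3K9me2 had no peak in either WT library in 662 of the 710 introns (93.2%), IBM1 among them, and in 171 of the 201 introns with any NRPE1 coverage in WT (85.1%). In the 33 introns with H3K9me2, mean NRPE1 coverage was 48.1% and 46.7% in h1 and 25.4% and 27.4% in WT, while the RPP7 intron was at 97.4% or more in both genotypes.

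**Figure D5:**
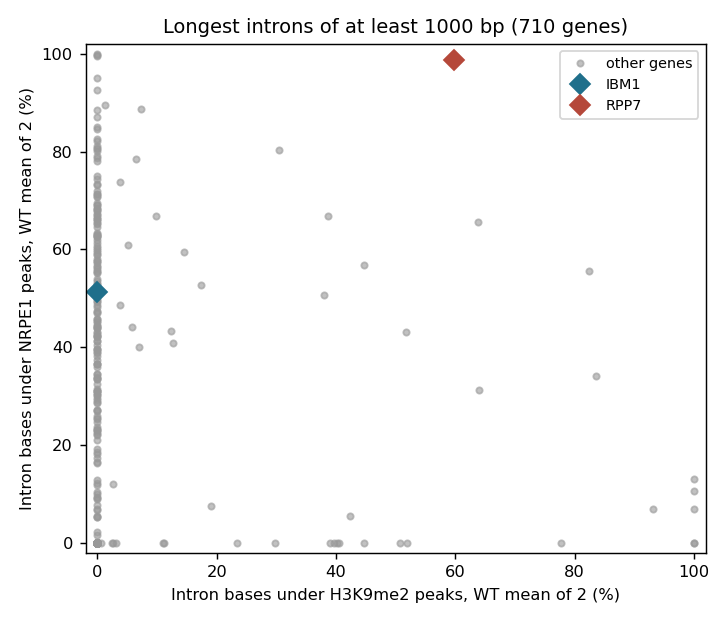
Each point is the longest intron of 1 of 710 genes, with the percent under H3K9me2 peaks in WT on the horizontal axis and under NRPE1 peaks in WT on the vertical axis (means of 2 libraries). RPP7 lies at 59.9% and 98.7%, and IBM1 on the vertical axis at 0% and 51.3%.

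The introns most like that of IBM1 over the 18 lists, by the mean absolute difference in percent covered, were those of CSLB06 (AT4G15320, a cellulose synthase-like gene) at 1.2 points, AT4G02320 at 2.01 and AT1G23670 at 2.03. In CSLB06, NRPE1 covered 48.4% and 46.7% of the intron in h1, 0% and 22.7% in ZF108DMS3 and 52.4% and 49.0% in WT, and none of these 3 introns had H3K9me2. All 18 lists, H3K9me2 among them, entered this choice, so likeness in them is not a separate result. For RPP7 the nearest introns were further off, AT1G36325 at 19.0 points, FMO GS-OX2 (AT1G62540) at 24.7 and AT5G52115 at 25.3. Only AT1G36325 among them had H3K9me2, at 85.1% and 74.6% in h1 and 57.6% and 70.0% in WT.

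Of 28 other genes tied to the 2 by pathway, family or position, none had an H3K9me2 peak in both libraries of a genotype in the gene or its flanks, where 4.22% of all genes had one in h1 and 4.28% in WT. An NRPE1 peak in both libraries was present at 16 of them in h1 (41.4% of all genes), at 20 in ZF108DMS3 (44.8% of all genes) and at 16 in WT (39.4% of all genes). Between h1 and WT, 10 of the 28 were higher in NRPE1 coverage in both h1 libraries (16.2% of all genes) and 5 lower (11.5% of all genes), and over the 16 with a peak in any of the 4 lists the median difference was 1.76 points, against 0.413 points over all genes with one. Between ZF108DMS3 and WT, 10 were higher (22.4% of all genes) and 13 lower (28% of all genes). Among the 6 factors for reading through such introns (EDM2, IBM2, AIPP1, AIPP2, AIPP3 and CPL2), EDM2 and CPL2 had an NRPE1 peak in both libraries in h1 and in WT, and AIPP3 and CPL2 in ZF108DMS3, none in the longest intron. The 5 methyltransferase genes (SUVH4, SUVH5, SUVH6, CMT3 and MET1) had 1 member higher and 2 lower in h1, and the 4 other KDM3-type JmjC genes had 2 higher and none lower. Of these JmjC genes, JMJ29 had 27.0% and 26.4% of its window under NRPE1 in h1 and 20.8% and 19.8% in WT.

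The listed gene with the intron nearest to RPP7 in NRPE1 coverage was PPD7 (AT3G05410), whose longest intron has 5748 bp. NRPE1 covered 93.7% and 93.9% of it in h1, 7.10% and 22.2% in ZF108DMS3 and 89.9% and 89.0% in WT. It carried H1 peaks over 21.7% and 13.0% in WT. An H3K9me2 peak was not present in both libraries of either genotype, but mean H3K9me2 coverage in WT was 1.22% of the intron. The downy mildew resistance gene RPP4 (AT4G16860) had NRPE1 over 23.9% and 27.7% of its 3158 bp intron in h1, 0% and 5.83% in ZF108DMS3 and 27.99% and 34.3% in WT. Among the 9 NLR genes around RPP7, 4 were higher in NRPE1 coverage in h1 (16.2% of all genes) and 2 lower (11.5% of all genes). Of the 9, 6 had a peak in any of the 4 lists, and among all such genes 34.7% were higher and 24.7% lower. AT1G58390 had 24.6% and 23.2% of its window under NRPE1 in h1, against 2.05% and 4.28% in WT. Several of these NLR genes are near-identical copies (AT1G58807 with AT1G59124, and AT1G58848 with AT1G59218), so their peaks depend on the few bases at which unique reads can be placed.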

How the data were processed

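NRPE1, SUVH1, H3K9me2 and H1 ChIP-seq peak lists of 18 libraries were used, 2 per group, each called on its own library. According to the methods the authors aligned 50-base reads, single- or paired-end, to TAIR10 with Bowtie2 2.1.0 and kept uniquely mapping reads without mismatch. They discarded duplicate reads (SAMtools) and ran MACS2 2.1.1 for peaks. The control used for calling is not given in the sources used here. The deposited fold enrichment is a ratio to local background, as MACS2 wrote it. The −log10 p-value and −log10 q-value of each peak were likewise used as the authors deposited them, as were starts, ends and summits. Labels give floral tissue and the protocol gives seedlings, which was followed.

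Exons and introns came from the RefSeq annotation of TAIR10.1, in which the highest peak end on each nuclear chromosome lay within its length. The main transcript was that with the longest coding sequence. Percent of bases under merged peaks was computed for each part and library with Python 3.11.15, numpy 2.4.6 and pandas 2.3.3, and groups were compared by a two-sided exact permutation test. The code that makes the calls was tested on simulated data. Repeats were found with blastn 2.17.0. Genes were counted as higher or lower when both libraries of one group lay beyond both of the other. Genes given with values besides IBM1 and RPP7 were listed genes with a peak in both libraries of a group and, for each of the pair, the 3 with the most similar longest intron. The members and gene lists were chosen with earlier results of these data known. Alternatives were a −log10 q of at least 3, equal numbers of peaks per list, summits with 150 bp on both sides, other introns, and each library left out. Depth is unknown, so no interval was computed.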

Additional observations from a re-analysis of the deposited data

How the results depend on the processing

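The lists hold no reads, and peaks that merge into one in a library split in another, so widths weigh on every value; with 2 libraries per group no p can fall below 0.33. Of 182 alternatives, 152 kept the direction of the result, or kept a result of 0 at 0, and 25 turned its sign. The other 5 moved it to or from 0. Size was not part of this count. Some of the 152 could not change, such as those for H3K9me2 at IBM1, which had no peak in any list. The same holds for the replicate block, where the difference is the same by construction. The lower NRPE1 coverage in ZF108DMS3 than in WT kept its sign at IBM1 under every alternative run but had the opposite sign at RPP7 when each peak was cut to its summit with 150 bp on both sides, at 4.39 points for the gene with flanks and 4.36 points for intron 1 (by construction a wide peak then counts no more than a narrow one). Cut that way, h1 minus WT in NRPE1 was −2.54 and −2.04 points at RPP7 and 0 at both IBM1 regions, and with the introns of the union of exons it was 0.11 points at IBM1. The h1 minus WT value of H3K9me2 at RPP7 turned positive with a −log10 q of at least 3 (3.29 points for the gene with flanks and 10.6 for intron 1), with equal numbers of peaks (1.18 and 3.80) and with summits (0.798 and 2.56). ZF108DMS3 minus WT in H1 became 1.17 and 3.74 points at RPP7 with the q limit and 0.304 and 0.975 with equal numbers of peaks, and 0 at IBM1 with the q limit; the cause was not tested in these cases.

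Leaving out 1 library gave NRPE1 h1 minus WT between −0.939 and 0.236 points for IBM1 with flanks, −7.16 and 1.8 for its long intron, 0.506 and 6.47 for RPP7 with flanks and 0 and 2.60 for RPP7 intron 1. It gave H3K9me2 h1 minus WT between −3.46 and 2.23 points for RPP7 with flanks and −11.1 and 7.16 for intron 1. It gave H1 ZF108DMS3 minus WT between 0 and 1.25 points for IBM1 with flanks, −2.18 and 0.352 for RPP7 with flanks and −6.99 and 1.13 for RPP7 intron 1. NRPE1 ZF108DMS3 minus WT stayed between −88.3 and −72.0 points for RPP7 intron 1 and between −51.3 and −35.2 for the IBM1 intron, and H1 nrpe1 minus WT between −9.29 and −5.67 for RPP7 intron 1. NRPE1 h1 minus WT in RPP7 intron 3, with alternatives chosen after seeing the data, ranged from 10.2 points with summits to 31.3 points without WT replicate 2. The value with summits came from h1 replicate 1 alone. The share of long introns with H3K9me2 in both WT libraries was 2.32% at a minimum of 500 bp, 14.5% at 2000 bp and 1.55% when 0.5 of the intron had to be covered, each time with RPP7 and without IBM1.

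Replicate numbers were shared between groups, but nothing in the labels ties same-numbered libraries together, and there are 2 pairs. The deviations of same-numbered libraries correlated across genes at 0.357 for NRPE1 in h1, 0.120 for NRPE1 in ZF108DMS3, 0.0567 for H3K9me2, 0.0262 for H1 in nrpe1 and 0.122 for H1 in ZF108DMS3. With the replicate block the differences are the same by construction (−43.2 and −80.1 points for NRPE1 in ZF108DMS3 in the IBM1 and RPP7 introns), and the smallest possible p is 0.5.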
